A study of Arabidopsis thaliana with 7 samples.

Results

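Leaves of Arabidopsis thaliana Col-0 sprayed with salicylic acid (SA) were set against leaves that received only the wetting agent, 6 h after the spray. The SA array came from plants given 0.5 mM SA in 0.02% Silwet, and its partner from plants given 0.02% Silwet, a surfactant that spreads droplets over the leaf surface. These are 2 of the 7 arrays of the series. The other 5 serve as context: SA in Silwet at 3, 12 and 24 h, Silwet at 12 h, and untreated leaves taken just before spraying and therefore at another hour of the day. All plants were wild type, 3.5 weeks old and grown in a 12 h photoperiod, and each RNA came from mature leaves pooled over 2 to 4 plants. Each condition had 1 array, so no value below has a replicate, an SD or a p-value, and a difference between the arrays may come from these particular plants. Of 22810 probe sets, the 13513 that name 1 gene were compared, and the 64 controls of the array maker were left out. The 13513 name 13355 loci, and where a locus had several probe sets the one with the highest mean over the 7 arrays was used.

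SA is a phenolic hormone that plants make when attacked by biotrophic pathogens. It acts through the NPR proteins, which work with TGA transcription factors, and raises defence genes locally and in distant leaves. Free SA is kept in check by conjugation to sugars and amino acids, and its signalling opposes that of jasmonate and of growth. Because whole leaves were ground, fewer cells of a type and less RNA per cell cannot be told apart in any of these values.

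Values are log2 RMA expression values, on which 1 unit is a 2-fold difference, and every difference is SA minus Silwet at 6 h unless another pair is named. The measured markers matched the labelled tissue, but there was only 1 for root, 1 for meristem and none for xylem or flowers. Absence of other tissue was therefore not shown. The 4 measured mesophyll markers were bright, with RCA, the activase of Rubisco, at 13.70 with SA and 14.04 with Silwet. The root-hair gene EXPA7 (5.83 with SA and 6.39 with Silwet) and the meristem gene CLV3 (4.99 and 4.85) lay below the median of all compared probe sets, which was 6.57 on the SA array and 6.61 on the Silwet array. The 18 probe sets for transcripts spiked in at hybridisation differed by -0.52 to 0.07, with none past 2-fold. For the 147 loci with more than 1 probe set, the differences read by the probe sets of a locus lay a median of 0.27 and at most 3.3 apart. Of the 31 such loci with any probe set past 2-fold, 11 had all their probe sets past it in the same direction. The excess of the 3′ over the 5′ end of the GAPDH control, which grows as RNA degrades, was 0.62 with SA and 1.78 with Silwet. A second GAPDH pair (0.05 and 0.34), a second actin pair (1.17 and 1.63) and ubiquitin (1.32 and 1.54) also had the larger excess on the Silwet array, and the first actin pair (2.48 and 2.39) on the SA array. The 25S ribosomal RNA control read 9.41 with SA and 8.20 with Silwet. Their part in the results below was not tested.

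SA and Silwet leaves differed at 6 h in about as many probe sets upward as downward. Past 2-fold, 1169 probe sets stood higher with SA (8.65% of 13513) and 1173 stood lower (8.68%), while 8910 lay within 0.5 of no difference. The median difference over all probe sets was -0.05. With it subtracted from every difference, the 2-fold counts were 1269 higher and 1085 lower. RMA forces the arrays to 1 distribution, which favours similar counts in both directions. Large differences were mostly increases. At 4-fold the counts were 361 higher and 285 lower, at 8-fold 140 and 71, at 16-fold 50 and 10, and at 32-fold 16 and 0. For scale, the Silwet arrays at 12 h and 6 h differed from each other by at least 2-fold in 6.85% of the probe sets, 524 higher and 401 lower at 12 h, and in 4 higher and 25 lower at 8-fold. Differences were scarce among dim probe sets. Of the probe sets divided into 4 classes by mean level, in the lowest class 14 of 3379 were at least 2-fold higher and 13 lower with SA, against 509 higher and 509 lower of 3378 in the highest class.

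**Figure D1:**
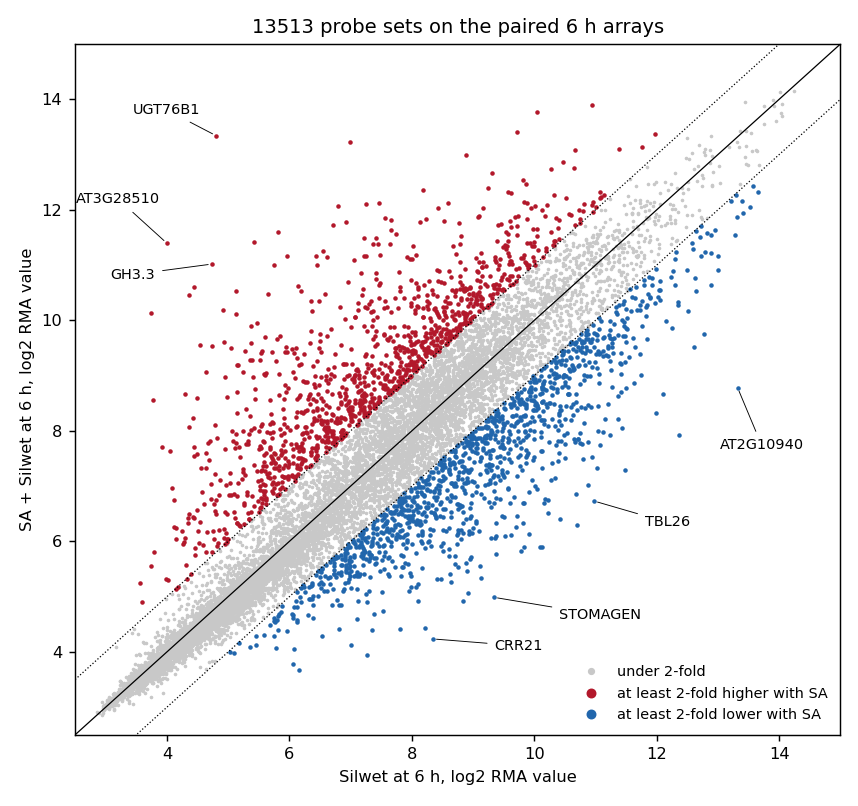
Each point is 1 of the 13513 probe sets, with its log2 RMA value with Silwet at 6 h on the x axis and with SA + Silwet at 6 h on the y axis. The solid line marks equal values and the dotted lines 2-fold. The 1169 points above the upper dotted line reach 8.55 log2 units from the diagonal, the 1173 below the lower one reach 4.54 units.

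The gene highest above Silwet was UGT76B1 (AT3G11340), a glucosyltransferase of SA and of the amino-acid derivative isoleucic acid. It read 13.34 with SA and 4.80 with Silwet, a difference of 8.55, or 374-fold, and 5.68 in untreated leaves. Next came AT3G28510, which encodes an AAA-type ATPase, at 11.40 with SA and 3.99 with Silwet (a difference of 7.40). Untreated leaves matched Silwet for this gene, at 3.95. The calmodulin-like gene AT3G01830 read 10.13 with SA and 3.75 with Silwet, and 7.70 in untreated leaves, so that part of its difference of 6.38 lay in a Silwet value below the untreated one.

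Genes with a direct link to hormone conjugation and defence filled several of the next places. GH3.3 (AT2G23170), an acyl amido synthetase that joins auxin to amino acids, read 11.02 with SA and 4.73 with Silwet (6.29). GRX480 (AT1G28480), a glutaredoxin that binds TGA factors and damps jasmonate-responsive genes, read 11.60 with SA and 5.82 with Silwet (5.78). AT3G13610, also named F6'H1, which hydroxylates feruloyl-CoA on the way to the coumarin scopoletin, stood at 11.01 with SA and 5.76 with Silwet (5.25). In untreated leaves they stood at 5.52, 7.03 and 6.13 in the same order, nearer to Silwet than to SA. The subtilase SBT3.3 (AT1G32960), a secreted protease studied in immune priming, read 10.12 with SA and 5.12 with Silwet (4.99). The chitinase gene CHI (AT2G43570) read 12.10 with SA and 7.25 with Silwet (4.86), and untreated leaves again matched Silwet, at 7.19. Of 3 measured genes for pathogenesis-related and antifungal proteins CHI was the only 1 past 2-fold. OSM34 differed by 0.16 and PR-1-LIKE by -0.57.

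WRKY53 (AT4G23810), a transcription factor that promotes leaf senescence, showed another pattern. It stood at 11.42 with SA and 5.42 with Silwet, a difference of 5.99, but at 11.85 in untreated leaves and 8.17 with Silwet at 12 h. SA leaves therefore resembled untreated ones and the Silwet array at 6 h stood apart. AT3G48650 (10.53 with SA, 5.13 with Silwet and 9.91 untreated) also had an untreated value near the SA value, but stayed low with Silwet at 12 h, at 5.48.

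The remaining 11 of the 20 loci furthest above Silwet carry a locus number only: AT4G01870 (6.24), AT3G13950 (6.16), AT1G10585 (6.10), AT4G22530 (5.27), AT3G48640 (5.26), AT4G39670 (5.19), AT1G57630 (5.01), AT1G78410 (5.01), AT4G13180 (4.85) and AT5G44570 (4.82) beside AT3G48650 (5.40). On the SA array the 20 lay between 9.55 and 13.34 (median 11.09), on the Silwet array between 3.75 and 7.25 (median 5.28) and in untreated leaves between 3.95 and 11.85 (median 7.11). The ranges with SA and with Silwet did not overlap, which the choice of these loci by their difference favours. In 11 of the 20 the Silwet value at 6 h stood at least 2-fold below the untreated one. AT3G48640, AT1G78410 and AT4G13180 were among these 11. On the Silwet array 15 of the 20 lay below 6.67, the median of the probe sets' mean levels, a range in which RMA compresses differences, so the order of these sizes is uncertain.

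**Figure D2:**
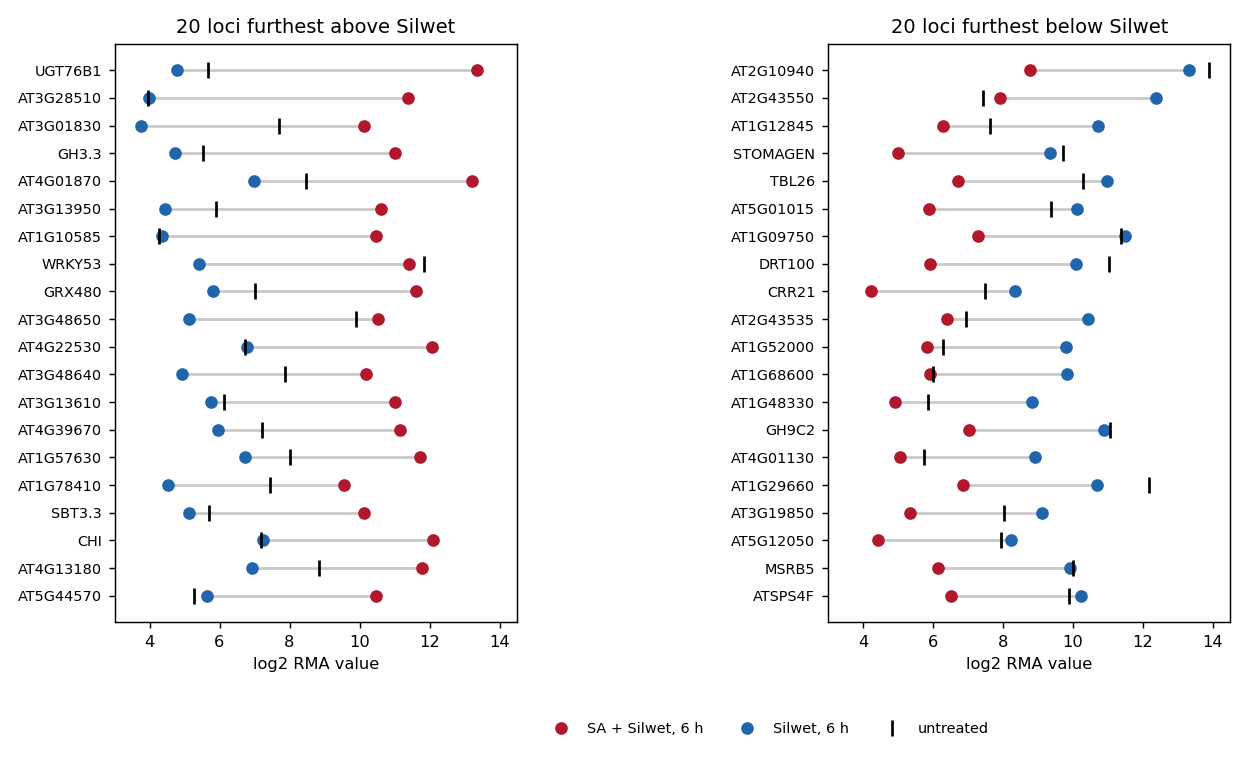
The 20 loci with the largest positive difference (left panel) and the 20 with the largest negative one (right panel), with log2 RMA values on the x axis. Red points are SA + Silwet and blue points Silwet, both at 6 h, and black ticks are untreated leaves. For WRKY53, AT3G48650, AT2G43550 and AT1G68600, for example, the untreated tick lies nearer the SA point than the Silwet point.

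At the other end, AT2G10940 read 8.78 with SA and 13.32 with Silwet (-4.54, or 23.3-fold lower), and 13.89 in untreated leaves. STOMAGEN (AT4G12970), a mesophyll peptide that promotes the formation of stomata, read 4.99 with SA and 9.34 with Silwet (-4.35), and 9.72 in untreated leaves. For both genes the SA array was the one that stood apart. Among genes of the cell wall, TBL26 (AT4G01080), of a family of polysaccharide acetyltransferases, read 6.73 with SA and 10.98 with Silwet (-4.25). The endoglucanase GH9C2 (AT1G64390) read 7.02 with SA and 10.88 with Silwet (-3.86).

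Other named genes among the 20 furthest below Silwet act in the chloroplast or in metabolism. CRR21 (AT5G55740), a protein needed to edit the chloroplast ndhD transcript, read 4.23 with SA and 8.34 with Silwet (-4.11). MSRB5 (AT4G04830), a methionine sulfoxide reductase, read 6.13 with SA and 9.91 with Silwet (-3.78). ATSPS4F (AT4G10120), a sucrose phosphate synthase, read 6.51 with SA and 10.22 with Silwet (-3.72). The leucine-rich repeat gene DRT100 (AT3G12610) read 5.90 with SA and 10.09 with Silwet (-4.19). Untreated leaves lay within 1 unit of Silwet for each of these 4, at 7.48 for CRR21, 9.89 for ATSPS4F and 11.03 for DRT100, and 0.09 above Silwet for MSRB5.

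Several others of the 20 were higher on the Silwet array than in untreated leaves. AT2G43550 read 7.92 with SA and 12.36 with Silwet (-4.44), but 7.44 in untreated leaves. AT1G12845 (6.29 with SA, 10.70 with Silwet, 7.62 untreated), AT2G43535 (6.40, 10.42 and 6.93) and AT1G68600 (5.91, 9.83 and 6.01) also had Silwet as the highest of the 3. With SA, AT2G43550, AT2G43535 and AT1G68600 lay within 1 unit of the untreated value, and AT1G12845 did not. The other 8 were AT5G01015 (-4.24), AT1G09750 (-4.19), AT1G52000 (-3.96), AT1G48330 (-3.91), AT4G01130 (-3.85), the GDSL lipase gene AT1G29660 (-3.82), AT3G19850 (-3.79) and AT5G12050 (-3.78). The 20 lay between 4.23 and 8.78 with SA, between 8.22 and 13.32 with Silwet, and between 5.73 and 13.89 in untreated leaves. In 8 of the 20 the Silwet value stood at least 2-fold above the untreated one, and in 1 at least 2-fold below it. AT1G52000, AT1G48330, AT4G01130 and AT3G19850 were among those with Silwet above untreated by that much.

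The comparison was repeated on loci whose Silwet value at 6 h lay within 0.5 of the untreated value. Of 10442 such loci, 579 stood at least 2-fold above Silwet with SA (5.54%) and 583 stood below it by as much (5.58%). The highest were AT3G28510, AT1G10585, AT4G22530, AT3G13610, CHI and AT5G44570, with differences of 7.40, 6.10, 5.27, 5.25, 4.86 and 4.82. The lowest were STOMAGEN (-4.35), AT1G09750 (-4.19), GH9C2 (-3.86), AT5G12050 (-3.78), MSRB5 (-3.78) and ATSPS4F (-3.72). In these 12 loci the SA array differed from both other arrays, which the way they were chosen fixed in advance.

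Functional families were read from gene symbols and synonyms, which reach only a small part of each pathway. The SA marker and signalling genes PR1, PR2, PR5, NPR1, ICS1 and WRKY70 are not analysed here because no probe set was named for them. Of the 13355 loci 1535 carry a symbol other than their locus number, and 10.7% of these 1535 stood higher with SA and 11.3% lower by the same limit, which is the background for the counts that follow. Of 43 lists, 39 had a measured member and 31 had at least 3. A list's count describes these arrays, and whether it stands apart from other genes was not tested.

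**Figure D3:**
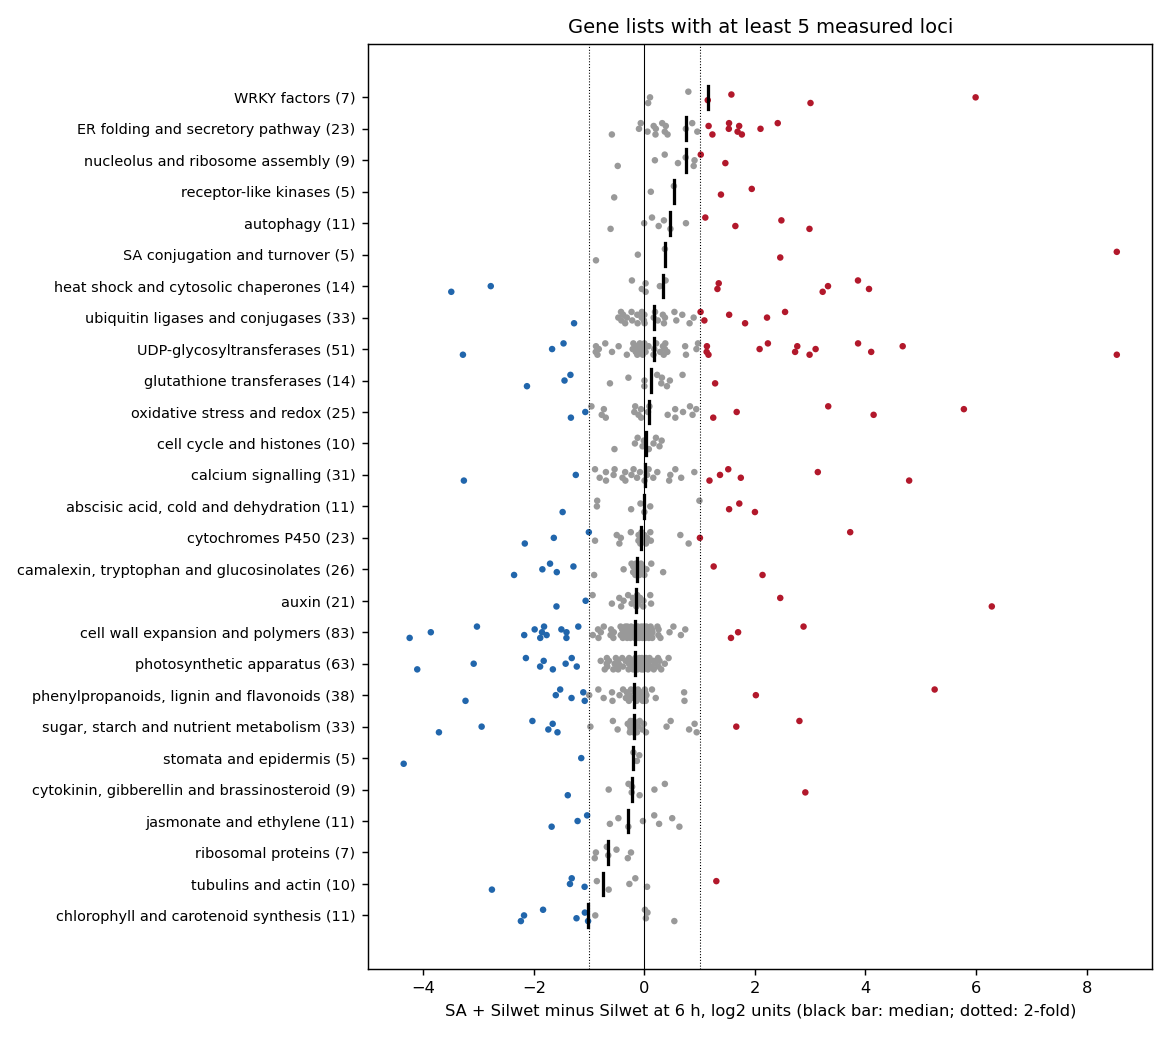
Each point is 1 locus and each row a gene list with at least 5 measured loci (number in brackets), with the difference between SA + Silwet and Silwet at 6 h in log2 units on the x axis. Red points are at least 2-fold higher, blue at least 2-fold lower, and black bars are medians, which run from -1.02 (chlorophyll and carotenoid synthesis) to 1.15 (WRKY factors).

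In signalling and transcription, the 7 measured WRKY factors, which bind W-box promoter elements, all had positive differences (median 1.15) and 4 were at least 2-fold higher. After WRKY53 the largest was that of WRKY6 (AT1G62300), at 9.07 with SA and 6.06 with Silwet (3.01). WRKY47 (1.57) and WRKY42 (1.15) came next. For WRKY6 and WRKY47 untreated leaves, at 8.65 and 7.26, again lay near the SA value, and with the untreated array in place of Silwet the median of the 7 was 0.08. The zinc-finger repressor STZ read 11.38 with SA and 7.37 with Silwet (4.01), with 11.92 in untreated leaves. HYH, the HY5-like bZIP factor of light signalling, read 8.71 with SA and 5.14 with Silwet (3.57), with 9.93 in untreated leaves. The list of ERF and DREB factors had 0 of 4 higher and 1 lower, TINY2 (-1.91).

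Of 5 measured receptor-like kinases 2 were at least 2-fold higher: SD1-29 (1.94), an S-domain lectin kinase that senses bacterial lipid signals, and EFR (1.39), the receptor for bacterial elongation factor Tu. THE1, a monitor of cell wall integrity, differed by -0.55. Calcium signalling had 6 of 31 members higher and 2 lower, with a median of 0.00. The calmodulin-like gene CML37 read 8.56 with SA and 3.77 with Silwet (4.79), and CML38 read 8.58 with SA and 5.44 with Silwet (3.14), with 8.59 in untreated leaves. CML43 (1.74), CML41 (1.37), GLR2.7 (1.52) and ATGLR1.2 (1.18), the last 2 of them glutamate receptor-like channels, made up the rest of the 6. The calmodulin-binding scaffold gene iqd21 was the lowest (-3.27). SAG101, a partner of EDS1 in immune signalling, read 9.05 with SA and 7.37 with Silwet (1.68).

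Among hormone genes members past 2-fold lay in both directions. Of 5 measured genes of SA conjugation and turnover 2 were at least 2-fold higher, UGT76B1 and WES1 (AT4G27260), also named GH3.5, at 8.62 with SA and 6.16 with Silwet (2.46). WES1 stood at 8.01 in untreated leaves, so against that array its difference was 0.60, under 2-fold. UGT74F1, which also glucosylates SA, read 6.35 with SA and 5.98 with Silwet (0.37). Of 21 auxin genes 2 were higher, GH3.3 and WES1, and 2 lower, HAT2 (-1.59) and IAA29 (-1.06), while 17 of the 21 had negative differences. In the jasmonate and ethylene list 0 of 11 were higher and 3 lower: the defensin genes PDF1.2b (9.44 with SA, 11.12 with Silwet) and PDF1.2 (7.88 and 9.09), and the jasmonate transcription factor MYC4 (6.75 and 7.78). Untreated leaves lay below both spray arrays for PDF1.2b and above both for MYC4, at 8.64 and 8.99. The cytokinin, gibberellin and brassinosteroid list had 1 of 9 higher and 1 lower, the response regulator RR16 (-1.39), which read 5.97 with SA, 7.35 with Silwet and 9.19 in untreated leaves. The higher one was the gibberellin receptor gene GID1B (2.91), while GID1A (-0.65) and GID1C (0.37) stayed under 2-fold. The abscisic acid and cold list had 3 of 11 higher, LTI30 (2.00), RD2 (1.72) and AT2G46140 (1.53), and 1 lower, COR15B (-1.48). COR15B read 12.04 with SA and 13.52 with Silwet, but 10.36 in untreated leaves and 10.10 with Silwet at 12 h, so its direction turned with either of these as control.

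The UDP-glycosyltransferases, enzymes that attach sugars to small molecules, were read as a family and by subgroup. Of 51 measured members 13 were at least 2-fold higher and 3 lower, with a median of 0.17. The family's subgroups, split after the values were seen, had different counts. In the UGT73 group 6 of 7 were higher, led by UGT73B5 (9.61 with SA, 4.93 with Silwet), UGT73B4 (8.60 and 4.50) and UGT73D1 (9.41 and 5.54). In the UGT85 group 0 of 5 were higher and 2 lower, UGT85A4 (-1.67) and UGT85A5 (-1.46), both of them lower in untreated leaves than on either spray array. The UGT71 and UGT76 groups had 2 of 9 and 2 of 8 higher and 0 lower. Higher members outside the UGT73 and UGT85 groups included UGT87A2 (2.99), UGT76E12 (2.77), UGT71B6 (2.73), which glucosylates abscisic acid, and GT72B1 (2.23), which conjugates xenobiotic phenols. The lowest was UGT78D1, a flavonol rhamnosyltransferase, at 6.09 with SA and 9.37 with Silwet (-3.28).

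Other detoxification families were counted in the same way. The glutathione transferases had 1 of 14 higher, GSTU25 (1.28), and 3 lower, GSTU18 (-2.12), GSTU20 (-1.44) and GSTU26 (-1.34). The cytochromes P450 had 2 of 23 higher and 3 lower. CYP71B23 read 10.69 with SA and 6.96 with Silwet (3.72), while CYP71B34 (-2.16) and CYP71B35 (-1.64) were lower. The redox list had 5 of 25 higher and 2 lower. Besides GRX480 it held NDB2, an external NADH dehydrogenase of mitochondria, at 11.81 with SA and 7.67 with Silwet (4.15), the peroxidase gene AT5G64120, also named PRX71 (3.33), and the glutathione reductase gene GR1 (1.67).

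Genes that fold, move and degrade proteins were read next. In the list of endoplasmic reticulum folding and the secretory pathway 9 of 23 were at least 2-fold higher and 0 lower, with a median of 0.75. The co-chaperone gene ATERDJ3B read 13.08 with SA and 10.67 with Silwet (2.41), and the calreticulin gene CRT1b read 12.75 with SA and 10.65 with Silwet (2.10). In untreated leaves both were lower still, at 9.32 and 9.71. BZIP60, a transcription factor of the unfolded protein response, was 1.76 higher, with 11.12 in untreated leaves against 10.98 with SA. AT1G18830, also named SEC31A, a coat protein of vesicles leaving the endoplasmic reticulum, was 1.72 higher. At 12 h, against the Silwet array of that time, 7 of the 23 were higher and 1 lower, and AT1G18830 stood 4.87 above.

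Chaperones of the cytosol and of organelles went both ways, with 6 of 14 at least 2-fold higher and 2 lower. Hsp70-2 read 11.48 with SA and 7.42 with Silwet (4.06), and AT5G48570, the immunophilin ROF2, read 10.35 with SA and 6.49 with Silwet (3.86). Hop3, which links Hsp70 to Hsp90, read 8.10 with SA and 4.78 with Silwet (3.32). Fes1A, a nucleotide exchange factor of Hsp70, read 11.15 with SA and 7.92 with Silwet (3.23). The lower ones were the plastid chaperonin subunit Cpn60beta4 (6.33 with SA, 9.82 with Silwet) and Fes1B (7.97 with SA, 10.75 with Silwet, 7.80 untreated).

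Among ubiquitin ligases and conjugating enzymes 6 of 33 were higher and 1 lower, with 18 differences above 0 and 14 below it (median 0.17). The largest differences were those of PUB24 (9.81 with SA, 7.27 with Silwet) and PUB23 (7.73 and 5.52), related U-box ligases that restrain immune signalling. Their close relative PUB22 differed by 0.89. Autophagy genes had 4 of 11 higher and 0 lower (median 0.47). All 4 encode ATG8 proteins, which coat the growing autophagosome, but so do 9 of the 11 measured. Of these 9 genes 5 stayed under 2-fold, the lowest of them ATG8F (-0.61). ATG8B read 10.05 with SA and 7.07 with Silwet (2.99), and ATG8H read 9.12 with SA and 6.64 with Silwet (2.48). APG8A (1.65) and ATG8E (1.10) followed.

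The nucleolar list had 2 of 9 at least 2-fold higher, IMP4 (1.47) and AT3G09720 (1.02), and 8 of 9 with positive differences. No cell cycle or histone gene of 10 passed 2-fold, and their differences ran from -0.54 to 0.31. A group put together after the values were seen held the mitochondrial genes of cytochrome c, NAD-dependent isocitrate dehydrogenase and the NADH dehydrogenases outside complex I. In it 5 of 10 were higher and 0 lower: NDB2, IDH-VI (10.26 with SA, 8.08 with Silwet), CYTC-2 (9.63 and 7.69), IDH-V (12.21 and 10.52) and CYTC-1 (12.32 and 11.07). CYTC-2 stood at 9.89 in untreated leaves, near the SA value.

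Chloroplast functions came after these. Of 11 genes of chlorophyll and carotenoid synthesis 0 were higher and 6 at least 2-fold lower (median -1.02). CHLI2, a subunit of magnesium chelatase, read 7.88 with SA and 10.11 with Silwet (-2.23). CHLM, the methyltransferase of the following step, read 9.98 with SA and 12.16 with Silwet (-2.18). PORB, which reduces protochlorophyllide, read 11.17 with SA, which was 1.83 lower than with Silwet, but 10.08 in untreated leaves. The lycopene cyclase gene LYC (-1.23), hemf2 (-1.08) and HEME2 (-1.02) completed the 6.

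In the photosynthetic apparatus 0 of 63 genes were higher and 9 lower, with a median of -0.18. All 9 are nuclear. Divided by genome after the values were seen, 9 of 21 nuclear genes were at least 2-fold lower (median -0.68) and 0 of 42 chloroplast-encoded genes were (median -0.05, from -0.72 for petL to 0.44). The median level of the nuclear genes was 10.64 with SA and 12.29 with Silwet, and that of the chloroplast genes 11.96 and 12.22. Of the 42 chloroplast-encoded genes 27 had negative differences. Whether the genomes differ was not tested.

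The NDH complex, which returns electrons from ferredoxin to plastoquinone around photosystem I, supplied 7 of the 9. Its 18 measured nuclear genes, RNA factors included, had 7 lower and 11 under 2-fold (median -0.28), and 6 had positive differences. Its subunit genes NdhN (9.11 with SA, 11.25 with Silwet), NdhL (9.40 and 11.29) and NdhS (10.64 and 12.29) were lower. So were CRR42 (6.95 and 10.04) and CRR41 (6.99 and 8.81), which serve its assembly, and CRR21 and CRR28 (5.93 and 7.35), which edit its chloroplast transcripts. For each of these 7 the untreated value lay above the SA value, from 7.08 for CRR28 to 12.01 for NdhS. The other 2 were the Calvin cycle genes SBPASE (11.64 with SA, 12.96 with Silwet) and PRK (12.17 and 13.39). The light-harvesting genes LHCB4.1, LHCB4.2 and LHCB4.3 differed by only -0.12, -0.68 and -0.67, and RCA by -0.34.

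A wider set of nuclear genes for photosystem assembly and organelle RNA processing was gathered by symbol after some of its values had been seen. In it 0 of 28 were higher and 19 at least 2-fold lower, with a median of -1.38. The highest difference in the set was that of OTP87 (0.94). Symbols alone do not show that every member serves the chloroplast. It shares CRR21, CRR42 and further members with the NDH genes above. Among the others PAM68 (7.21 with SA, 9.48 with Silwet) and LPA19 (7.29 and 9.48) assist the assembly of photosystem II, LIL3:1 (9.23 and 11.41) serves chlorophyll synthesis, CFM3A (6.62 and 8.79) splices group II introns, and CCB3 (7.22 and 9.11) matures cytochrome b6. Against the Silwet array at 12 h, 1 of the 28 was higher and 5 lower, with a median of -0.57.

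**Figure D4:**
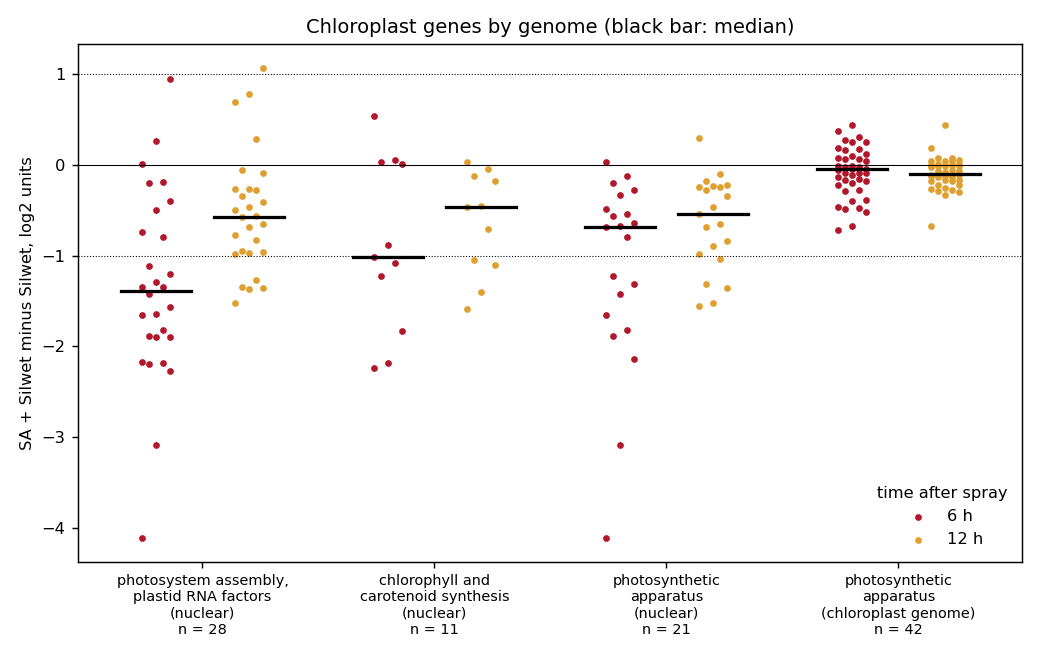
Differences between SA + Silwet and Silwet in log2 units (y axis) for 4 groups of chloroplast genes, at 6 h (red) and 12 h (yellow), 1 point per locus, with black bars for medians. At 6 h the medians of the nuclear groups are -1.38, -1.02 and -0.68 and that of the chloroplast-encoded genes -0.05. The first group and the nuclear photosynthetic apparatus share genes. The first group was gathered by symbol and may hold RNA factors of other organelles.

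Genes of the cell wall and cytoskeleton followed. Of 83 cell wall genes 13 were at least 2-fold lower and 3 higher (median -0.16), beside the background of 11.3% lower and 10.7% higher. After TBL26 and GH9C2 the expansin gene EXPA8 was lowest, at 6.89 with SA and 9.92 with Silwet (-3.03). The pectin methylesterase gene ATPMEPCRB went the other way, at 6.97 with SA and 4.09 with Silwet (2.88), with 9.07 in untreated leaves. Tubulins and actin had 4 of 10 lower and 1 higher (median -0.75). The beta-tubulin gene TUB5 read 8.86 with SA and 11.62 with Silwet (-2.76), TUB1 (-1.35), TUB6 (-1.31) and the alpha-tubulin gene TUA6 (-1.08) were also lower, and TUA1 was 1.30 higher. Of 5 genes of stomata and epidermis 2 were lower, STOMAGEN and FMA (6.67 with SA, 7.81 with Silwet), the guard cell fate factor also called FAMA. MUTE (-0.20) and SPCH (-0.13), which act earlier in the lineage, had low values on both arrays.

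In the list of sugar, starch and nutrient metabolism 2 of 33 genes were higher and 6 lower. It is not limited to carbon, and AT3G21670 (-2.03) was among the 6. Besides ATSPS4F the plastid disproportionating enzyme DPE1, which acts on starch breakdown products, read 7.45 with SA and 10.40 with Silwet (-2.94), and 6.90 in untreated leaves. Within the SWEET sugar transporters SWEET4 read 10.18 with SA and 7.37 with Silwet (2.81), whereas SWEET13 (-1.74), SWEET16 (-1.66) and SWEET17 (-1.57) were lower. The glucosinolate and beta-glucosidase list had 2 of 26 higher, BGLU31 (2.14) and BGLU45 (1.25), and 5 lower. AOP1 (-2.36) and BCAT4 (-1.71), both of methionine-derived glucosinolate synthesis, were among the lower ones. The list of phenylpropanoid and serine carboxypeptidase-like (SCPL) genes had 2 of 38 higher, AT3G13610 and scpl16 (2.02), and 6 lower. Of these 6, SCPL34 (6.06 with SA, 9.29 with Silwet) differed most. The 29 loci with an SCPL symbol had 1 higher and 6 lower by themselves. Of the lists chosen first, the remaining ones had at most 3 measured members or none past 2-fold, among them the reference genes GAPC2 (0.44) and PEX4 (0.24) and the 7 chloroplast-encoded ribosomal protein genes of the large subunit (-0.90 to -0.24).

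A second reading used no chosen list. Loci were grouped by the letters that open their symbol, and 29 stems had at least 8 measured loci. Among the highest medians were those of PUB (0.58), VPS (0.47), UBP (0.43), SEC (0.38), ATG (0.37), PRA (0.27) and UGT (0.18), which name ubiquitin ligases, vacuolar sorting proteins, ubiquitin proteases, secretory proteins, autophagy proteins, prenylated Rab acceptors and glycosyltransferases. With the untreated array in place of Silwet the PUB median turned negative, at -0.44. In the VPS group 2 of 10 were at least 2-fold higher, VPS60.1 (1.96) and VPS20.1 (1.25), both of the ESCRT-III membrane-scission machinery. In the UBP group 0 of 12 were past 2-fold either way, and the highest was UBP24 (0.88). The lowest medians were those of RPS (-0.56), ALDH (-0.41), EXPA (-0.29), TRM (-0.28), GH (-0.23), TET (-0.23), TBL (-0.21) and OTP (-0.20). The 8 RPS genes, like the 7 ribosomal protein genes above (median -0.65), all lie in the chloroplast genome, and rps16 was the 1 of them past 2-fold (-1.35). Aldehyde dehydrogenases divided, with ALDH7B4 at 1.88 and ALDH3F1 (-1.76), ALDH6B2 (-1.26) and ALDH11A3 (-1.15) lower. The GH stem joins unrelated proteins, the GH3 synthetases and the GH9 endoglucanases. Of 11 RALF peptide genes, grouped after the values were seen, 0 were higher and 2 lower, RALFL24 (5.46 with SA, 8.90 with Silwet) and RALFL34 (8.21 and 11.37). Of 5 methionine sulfoxide reductases, also grouped then, MSRB3 was 1.19 higher, and MSRB5 and MSRB6 (-2.74) were lower. The tetraspanin gene TET8, whose product marks secreted vesicles, was 3.37 higher in a family with a median of -0.23.

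Neighbouring genes were then compared along the RefSeq gene order. Of 5845 pairs of adjacent protein-coding genes that were both measured, 90 were both at least 2-fold higher (1.54%) and 74 both lower (1.27%). In 98 pairs (1.68%) 1 gene was higher and the other lower. Among all probe sets 8.65% were higher and 8.68% lower by the same limit. These are shares of single probe sets, so the shares of pairs, which need 2 calls, cannot be read directly against them. Whether neighbours go together more than other genes was not tested. There were 8 runs of 3 adjacent higher genes and 3 runs of 3 adjacent lower ones. The widest difference in a run was that of the subtilase gene SBT3.3 (4.99) on chromosome 1. Its run also held the subtilase gene SBT3.5 (11.09 with SA, 7.06 with Silwet), with AT1G32950 (6.54 and 4.95) between SBT3.5 and SBT3.3. On the same chromosome AT1G61360 (2.03), AT1G61370 (2.24) and SD1-29 (1.94) lay side by side. On chromosome 3 AT3G60420 (4.11), AT3G60440 (1.67) and AT3G60450 (3.53) formed another run. Probe sets of neighbouring duplicates can read each other's transcripts, and this was not tested. Of the 11 subtilases with a symbol, gathered after the values were seen, SBT3.3 and SBT3.5 were the 2 at least 2-fold higher, and 2 were lower, SBT1.3 (-1.16) and ARA12 (-1.13).

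The 12 h pair, which shares no array with the 6 h pair, had 808 probe sets past 2-fold upward (5.98%) and 812 downward (6.01%). Past 2-fold upward at both times were 610, which is 52.2% of the 1169 at 6 h and 75.5% of the 808 at 12 h. Downward they were 551, which is 47.0% of the 1173 and 67.9% of the 812. All 20 loci furthest above Silwet at 6 h were at least 2-fold higher at 12 h as well, each by less, and 19 of the 20 furthest below were at least 2-fold lower. Since the 20 were chosen on their 6 h values, a smaller difference at 12 h is likely for that reason alone. Over the 1169, the median level was 9.11 at 3 h, 9.09 at 6 h, 8.72 at 12 h and 8.23 at 24 h with SA, against 7.21 and 7.48 with Silwet at 6 h and 12 h and 7.63 in untreated leaves. Over the 1173 it was 7.67, 7.29, 7.69 and 8.30 with SA, against 9.05 and 8.75 with Silwet and 8.75 in untreated leaves. Both sets were chosen on the 6 h pair, so the direction between their SA and Silwet medians at 6 h was fixed in advance. The same choice favours 6 h values that lie away from the other arrays.

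Among loci at least 2-fold higher at 6 h, 554 of 1159 were not so at 12 h. The 6 in which the 6 h difference exceeded the 12 h difference most were led by Hop3, which differed by 3.32 at 6 h and -3.11 at 12 h. Its 12 h values were 4.81 with SA and 7.91 with Silwet, so the Silwet array was the high one at that time. Fes1A differed by 3.23 at 6 h and -1.54 at 12 h, with 8.48 with SA and 10.02 with Silwet at 12 h. AT2G29500 read 9.51 with SA and 5.04 with Silwet at 6 h, and 5.58 and 5.09 at 12 h, so here the SA value came down. AT5G19120 (2.60 at 6 h, -0.75 at 12 h), AT2G20670 (2.22 and -1.24) and UGT73B1 (1.13 and -2.19) completed the 6.

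Downward, 617 of 1164 loci were at least 2-fold lower at 6 h and not at 12 h. AT3G28270 read 5.56 with SA and 9.12 with Silwet at 6 h, and 8.19 and 8.15 at 12 h, and with SA at 24 h it was at 10.56. ATSPS4F differed by -3.72 at 6 h and -0.73 at 12 h, and its SA series read 8.03, 6.51, 8.87 and 10.17 at 3, 6, 12 and 24 h. AT4G28080 (-3.43 at 6 h and -0.63 at 12 h) and AT5G56850 (-3.22 and -0.54) had the same order. AT3G15570 (-2.97 and -0.30) read 7.78 with SA and 10.75 with Silwet at 6 h, and 9.10 and 9.40 at 12 h, so both values moved. AT1G13650 differed from these. It read 5.68 with SA and 8.96 with Silwet at 6 h, and 5.60 and 5.86 at 12 h, so the Silwet value was the one that came to the SA value.

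**Figure D5:**
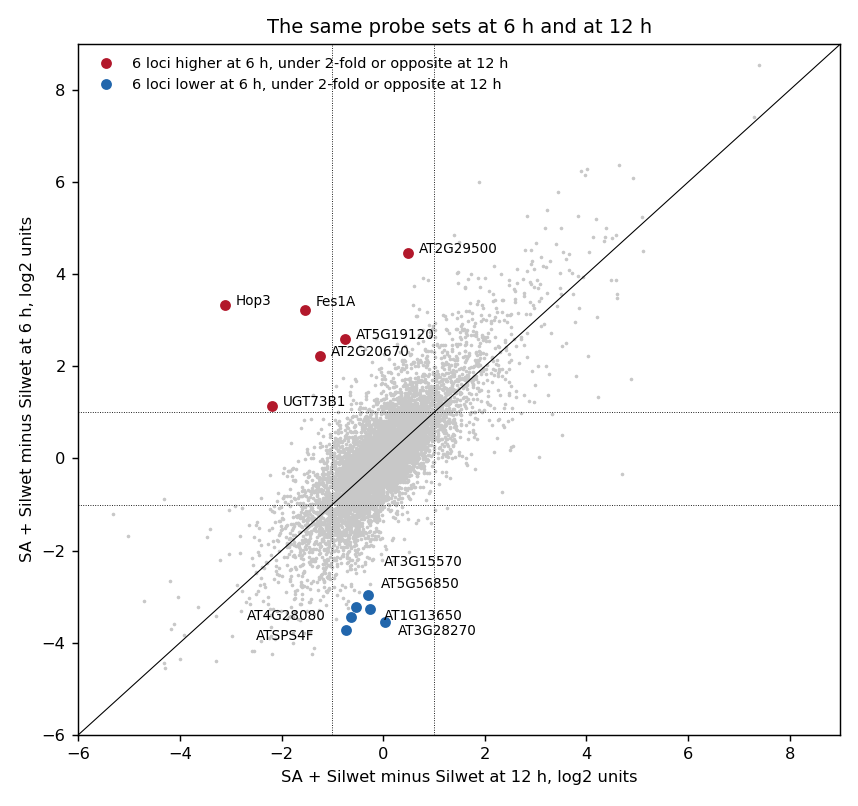
Difference between SA + Silwet and Silwet in log2 units at 12 h (x axis) and at 6 h (y axis), 1 grey point per probe set, with the diagonal as a solid line and 2-fold as dotted lines. The 6 loci in red were higher at 6 h and under 2-fold or lower at 12 h, the 6 in blue lower at 6 h and under 2-fold at 12 h; Hop3 lies at 3.32 and -3.11.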

How the data were processed

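The authors deposited log2 expression values for 7 Affymetrix ATH1 arrays, for which the submitters' processing notes name RMA and affy; versions are not given in the sources used here. RMA corrects background, forces the arrays to 1 distribution and summarises the probes of each set, so a shift of most transcripts would be hidden and dim differences are compressed. Arrays have no read depth, and their number limits the precision.

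Probe sets were named from the platform annotation: 13513 name 1 gene, 503 several and 8794 none. Symbols came from RefSeq's TAIR10.1 table for 13436 by gene number and 48 by locus, and 29 kept the annotation's name. For each probe set the Silwet value at 6 h was subtracted from the SA value at 6 h (Python 3.11.15, pandas 2.3.3), a step checked on simulated data. With 1 array a side no test was run.

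The comparison, the lists of genes and the rule that picks genes to name were chosen with earlier results of these data known. Lists are patterns on symbols and synonyms; 10 matches that belong to other proteins were removed by identity. The rule names the 20 loci furthest each way, up to 4 members per list, 6 loci each way that differ most between 6 h and 12 h, and 6 each way with Silwet within 0.5 of untreated. Other genes were named after their values were seen. Alternatives changed the fold threshold, the probe sets, the centring and the control array. Promoter motifs were not analysed here. A further symbol family is not reported here.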

Additional observations from a re-analysis of the deposited data

Results flagged for a closer look

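For 7 loci the SA and Silwet arrays differed by at least 2-fold in opposite directions at 6 h and at 12 h. The difference between the times was not tested, since each has 1 array a side. Hop3 differed by 3.32 at 6 h and -3.11 at 12 h, and Fes1A by 3.23 and -1.54. AT2G20670 differed by 2.22 at 6 h and -1.24 at 12 h, AT1G64380 by 1.37 and -1.39, and UGT73B1 by 1.13 and -2.19. In the other direction AT5G50915 differed by -1.07 at 6 h and 1.25 at 12 h, and AT3G26490 by -1.11 and 1.03.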

How the results depend on the processing

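The counts of 1169 higher and 1173 lower probe sets became 2019 and 2025 at 1.5-fold, 361 and 285 at 4-fold, 2350 and 2211 over all probe sets except maker controls, and 165 and 174 over loci with a symbol only, a setting chosen after seeing the data. Under the 6 other settings they stayed within 1.5 times, from 971 to 1353. Of 210 genes followed, centring turned the direction of none that was past 2-fold. Another control array did for some. Of the 155 of them past 2-fold, 110 stayed so in the same direction against untreated leaves, 22 kept their sign under 2-fold and 23 turned; against Silwet at 12 h these counts were 128, 18 and 9, against the mean of both Silwet arrays 142, 12 and 1, and after centring 154, 1 and 0. Calls lost against untreated leaves included AT3G48650 (0.62), GR1 (0.04), PUB23 (0.18) and WRKY6 (0.42). With untreated leaves as control, genes higher than Silwet turned lower: WRKY53 (-0.44), AT2G20670 (-1.82), AT5G19120 (-0.73), CYP71B24 (-0.20), AT5G52050 (-0.64), WRKY47 (-0.016), CML38 (-0.0069), BZIP60 (-0.15), PUB19 (-0.91), ATPMEPCRB (-2.10), TUA1 (-0.027), HYH (-1.22), STZ (-0.54), CYTC-2 (-0.26) and AT1G64380 (-2.18). Genes lower than Silwet turned higher: AT2G43550 (0.48), PDF1.2b (0.80), PDF1.2 (1.63), COR15B (1.68), PORB (1.09), DPE1 (0.55), UGT85A4 (0.14) and UGT85A5 (1.41). With Silwet at 12 h as control the reversed values were AT2G20670 (-0.39), AT5G19120 (-0.077), UGT73B1 (-0.75), ATG8E (-0.42), COR15B (1.94), PORB (0.18), TUA1 (-0.045), MSRB6 (0.41) and AT1G64380 (-0.56), and with the mean of both Silwet arrays COR15B (0.23). The cause was not tested. No list median past 2-fold changed sign. No paired analysis was possible because each group has 1 array. With no replicate, a difference cannot be set against the spread between plants, and RMA shrinks differences between dim values.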

Other observations

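Genes with a symbol that fell on no list also differed widely at 6 h, and those given here were picked after their values were seen. SUFE2, an activator of the cysteine desulfurase that feeds iron-sulfur cluster assembly, read 11.26 with SA and 6.55 with Silwet, and 6.77 in untreated leaves. IAGLU, a glucosyltransferase named for its action on indole-3-acetate, read 11.38 with SA and 7.64 with Silwet, with 10.08 in untreated leaves. GFAT, which opens the hexosamine pathway for sugar nucleotides, read 9.89 with SA and 7.21 with Silwet. The related small GTPase genes SGP1 (10.85 with SA, 7.42 with Silwet) and SGP2 (8.98 and 6.51) were both higher. So were BIK1, a kinase that acts downstream of immune receptors (9.20 and 7.32), and SGT1A, a co-chaperone of immune receptors (11.37 and 9.52), although untreated leaves already stood at 9.55 for BIK1.

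Lower in SA leaves were further genes of the chloroplast: CaS, a thylakoid calcium sensor (9.52 with SA, 11.65 with Silwet), THIC of thiamin synthesis (a difference of -2.09) and FUG1, a chloroplast translation initiation factor (10.27 and 12.34). At 12 h FUG1 differed by -0.04. Lower as well were SKU5, a wall-associated protein of directional growth (a difference of -3.04), the trichome factor GIS (6.12 and 8.74), the peptide gene CLE44 (5.41 and 7.61), and 2 genes of carbohydrate storage, PWD of starch breakdown (9.69 and 11.61) and TMT2, a vacuolar sugar transporter (8.21 and 10.50). For PWD and TMT2 untreated leaves, at 8.81 and 8.74, lay below the Silwet array.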
